A study of Mus musculus with 18 samples.

Results

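The change of the mammary epithelium from bud to sprout was followed in control mouse embryos, by RNA-seq of the epithelium at embryonic day E13.5 (the bud) and embryonic day E16.5 (the sprout that has begun to branch). The members were defined by the sample labels: all 9 control libraries of the 18 in the study, 4 from E13.5 and 5 from E16.5. The comparison itself was chosen with earlier results of these data known. Controls were Cre-negative littermates, wild type at Krt14 and heterozygous for a Ctnnb1 allele in which loxP sites flank exon 3. Without Cre this allele is not recombined, and all 4 groups of the study carried it. The other 9 libraries (4 from E13.5 and 5 from E16.5) came from embryos that also carried Krt14Cre, in which loss of exon 3 stabilizes β-catenin in the epithelium. They entered the model that estimates the spread, and they serve for comparison at the end. All embryos were of a mixed C57Bl/6 and NMRI background. Epithelia of mammary buds 1 to 3 were freed from the ventral skin with enzymes and dissected by hand, and each library pooled 2 to 3 embryos of 1 litter and genotype. E13.5 pools held both sexes and E16.5 pools held females, and the sex makeup therefore cannot be told apart from the stage. Results are therefore given for autosomal genes. Which litter a library came from is not stated, and p-values measure the spread between pools.

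The mouse mammary bud is a ball of epithelial cells that forms under the control of Wnt signalling and of transcription factors such as Tbx3 and Gata3. It then enters a pause with little cell division, while parathyroid hormone-related protein from the bud conditions the mesenchyme around it. The epithelium later resumes division, grows out as a sprout towards the fat pad and starts to branch, and the first differences between basal and luminal cells appear. Wnt ligands bind Frizzled and Lrp receptors and keep β-catenin from being destroyed, so that it can enter the nucleus and act with Lef1 and Tcf factors on target genes, several of which encode inhibitors of the pathway itself.

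Library totals ran from 27417578 to 29310457 counts at E13.5 and from 27659003 to 36922108 at E16.5. Expression is given as CPM (a gene's counts per 1000000 counts of the TMM-scaled library), the error of a mean CPM is the SD over the libraries of a stage (n = 4 for the bud, n = 5 for the sprout), and errors of log2 fold changes are SE. These SE were derived from the test, as the absolute log2 fold change divided by the square root of its F statistic. For genes with few or no counts in a group they depend on the prior count. A positive log2 fold change means higher at E16.5. The first principal component of the 9 libraries held 52.5% of the variance and separated the stages, with scores of -125.8 to -108.8 at E13.5 and of 81.5 to 110.9 at E16.5. The second (13.8%) set 1 library apart: E13.5 control 3 scored -137.7, and the other 3 E13.5 libraries scored 25.1 to 60.9. In that library 4.18% of counts were mitochondrial, against 2.18% to 2.50% in the other E13.5 libraries, and results that move without it are given both ways. Of the stabilized libraries, E16.5 stabilized 4 stood apart, with 10.49% of its counts in the predicted gene Gm10800 (0.0169% to 0.233% in the E16.5 controls) and 3165 counts in Y-linked genes (109 to 765), although its pool is labelled female. The exons of 64 of the 194 genes named here overlap those of another annotated gene, mostly on the opposite strand, among them Ctnnb1, Axin2, Lef1, Tbx3, Gata3, Ccnd1 and Cdkn1a. Named genes with an overlap on the same strand include Hoxc5 (with Hoxc10) and Fgfr2 (with Ctbp2). Whether the counting used strand is not given in the sources used here, and reads of such pairs cannot be told apart.

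Markers of mammary epithelium were present in every library, but not all at a steady level. Lef1, Trp63 and Tbx3, described below, fell by 4.51 ± 0.22, 2.17 ± 0.12 and 1.62 ± 0.13 (log2). Epcam rose by 0.42 ± 0.12 (edgeR adjusted p = 0.00575), and Krt18, described below, by 0.74 ± 0.26. 271, 272, 354 and 344 CPM at E13.5 and 413, 409, 431, 403 and 418 CPM at E16.5 were measured for Epcam, the epithelial cell adhesion molecule. E-cadherin (Cdh1) ran from 251 to 299 CPM at E13.5 and from 304 to 396 at E16.5, and the basal keratin gene Krt5 from 498 to 755 and from 355 to 599. Krt14 (ENSMUSG00000045545, GRCm38/mm10 chromosome 11, 100203162 to 100207548), a basal keratin gene (its promoter directs Cre in the stabilized embryos), had 813 ± 104 CPM at E13.5 and 671 ± 70.02 CPM at E16.5, and Krt8 (ENSMUSG00000049382, GRCm38/mm10 chromosome 15, 101996698 to 102004482), a keratin of simple and luminal epithelium, had 268 ± 32.8 CPM at E13.5 and 245 ± 41.6 CPM at E16.5. Neither keratin passed the test (log2 fold changes of -0.28 ± 0.23 and -0.13 ± 0.33, edgeR adjusted p = 0.342 and 0.782), and the stages overlapped for both. In bulk tissue such as this, fewer cells of a type and less RNA per cell cannot be told apart.

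Between the stages, 7913 of 16580 tested autosomal genes passed edgeR's quasi-likelihood test at a Benjamini-Hochberg adjusted p of 0.05, which is 47.7%. Of these, 4166 (25.1%) were higher at E16.5 and 3747 (22.6%) were lower. The change was at least 1 on the log2 scale for 2303 genes that rose (13.9%) and for 2192 genes that fell (13.2%). Over all tested genes the median log2 fold change was -0.02, and CPM ranges did not overlap for 3741 genes in the higher direction (22.6%) and for 2892 in the lower direction (17.4%). Every count of list members below stands against this background, in which close to 1 gene in 2 changed. Without E13.5 control 3, 8047 of 17020 genes passed.

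**Figure D1:**
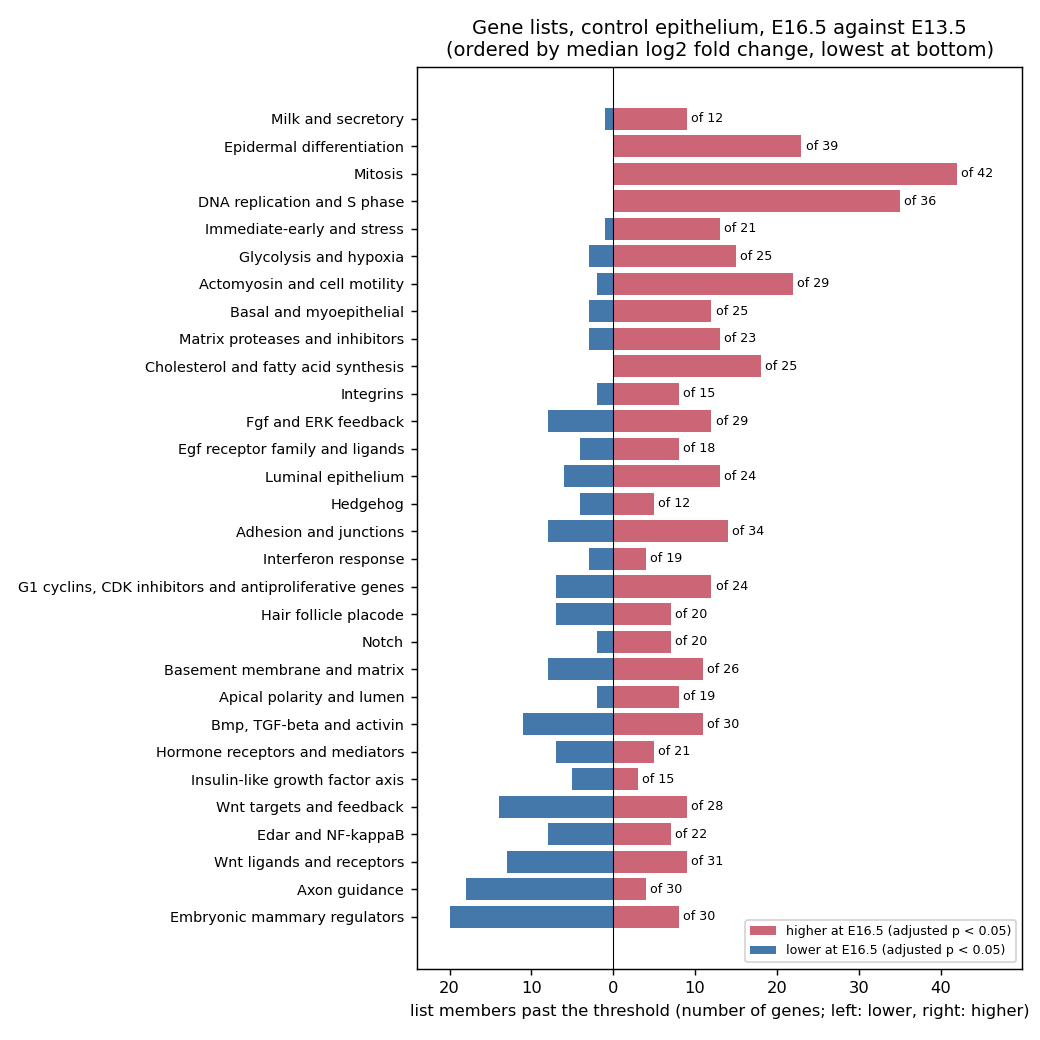
Members of 30 gene lists that passed the test between E16.5 and E13.5 control epithelium, as numbers of genes (right, higher at E16.5; left, lower), with the number tested beside each bar and the lists ordered by median log2 fold change. All 42 mitosis genes and 35 of 36 replication genes were higher, and embryonic mammary regulators and axon guidance genes were mostly lower.

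**Figure D2:**
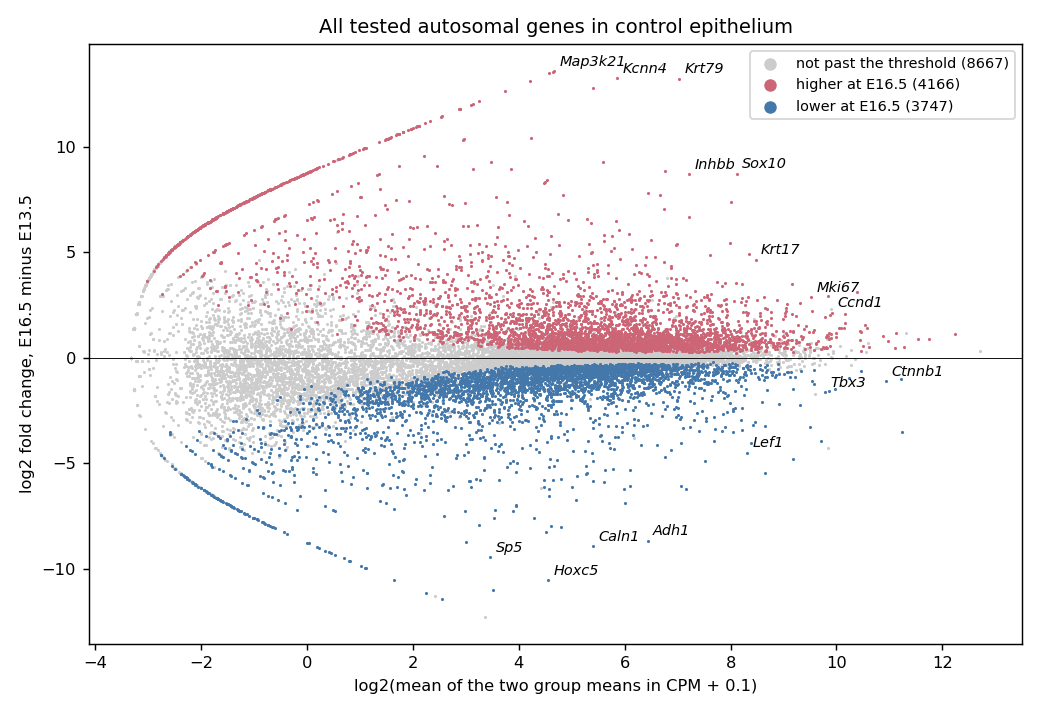
Log2 fold change of each of 16580 autosomal genes against the log2 of its mean level (CPM + 0.1) in the 9 control libraries. Red points (4166) were higher and blue points (3747) lower at E16.5, and the curved edges are genes with no count at one of the stages.

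The question here was which genes accompany the end of the bud's pause. Cell-cycle genes rose almost without exception. All 42 mitosis genes were higher at E16.5, with a median log2 fold change of 2.56 and single values from 1.24 to 3.18, against -0.02 over all genes. Of 36 genes of DNA replication and S phase, 35 were higher and none was lower (median 1.81). The exception was Gins2, a subunit of the GINS complex of the replicative helicase, which had 15.1, 14.2, 33.3 and 40.6 CPM at E13.5 and 21.9, 26.5, 32.2, 26.3 and 21.4 CPM at E16.5. Its E13.5 libraries spanned the whole E16.5 range, and it did not pass (log2 fold change -0.01 ± 0.33, edgeR adjusted p = 0.995).

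The summed level of the mitosis list was 865 to 1365 CPM in the E13.5 libraries and 6933 to 7720 CPM in the E16.5 libraries. That of the replication list was 1342 to 1533 CPM and 4945 to 5751 CPM. No E13.5 library reached the lowest E16.5 library for either list. Mki67 (ENSMUSG00000031004, GRCm38/mm10 chromosome 7, 135689784 to 135716361), which encodes the Ki-67 protein of cycling cells, had 217, 221, 149 and 116 CPM at E13.5 and 1368, 1299.9, 1225, 1372 and 1189 CPM at E16.5. It rose by 2.88 ± 0.19 (log2; edgeR adjusted p = 5.67e-10), 7.34-fold. Top2a, the topoisomerase that untangles DNA before cell division, had 148, 123, 131 and 93.3 CPM at E13.5 and 935, 792, 737, 798 and 809 CPM at E16.5. Ccna2, cyclin A2 of S phase and mitosis, had 24.1, 23.3, 36.99 and 21.8 CPM at E13.5 and 238, 219, 205, 224 and 227 CPM at E16.5, and Ect2, an exchange factor needed to form the cleavage furrow, had 21.8, 18.3, 17.02 and 16.1 CPM at E13.5 and 116, 101, 90.7, 94.1 and 109 CPM at E16.5. In all 3 genes the stages stood apart, and the log2 fold changes were 2.72 ± 0.14, 3.07 ± 0.17 and 2.48 ± 0.14 (edgeR adjusted p = 2.37e-11, 3.67e-11 and 6.06e-11).

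Replication genes had single values from -0.01 (Gins2) to 2.88. Mcm3, a subunit of the replicative helicase, had 57.6, 52.3, 48.2 and 51.7 CPM at E13.5 and 302, 273, 283, 249 and 264 CPM at E16.5. Rrm2, the small subunit of ribonucleotide reductase, which makes deoxynucleotides, had 32.98, 32.1, 24.1 and 25.7 CPM at E13.5 and 261, 210.5, 198, 205 and 185 CPM at E16.5. Clspn, or claspin, an adaptor of the replication checkpoint, had 21.5, 23.3, 28.7 and 25.2 CPM at E13.5 and 109, 116, 109, 108 and 103 CPM at E16.5. The lowest E16.5 library was above the highest E13.5 library for each, with log2 fold changes of 2.39 ± 0.12, 2.88 ± 0.16 and 2.14 ± 0.14 (edgeR adjusted p = 1.9e-11, 6.06e-11 and 5.08e-10).

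**Figure D3:**
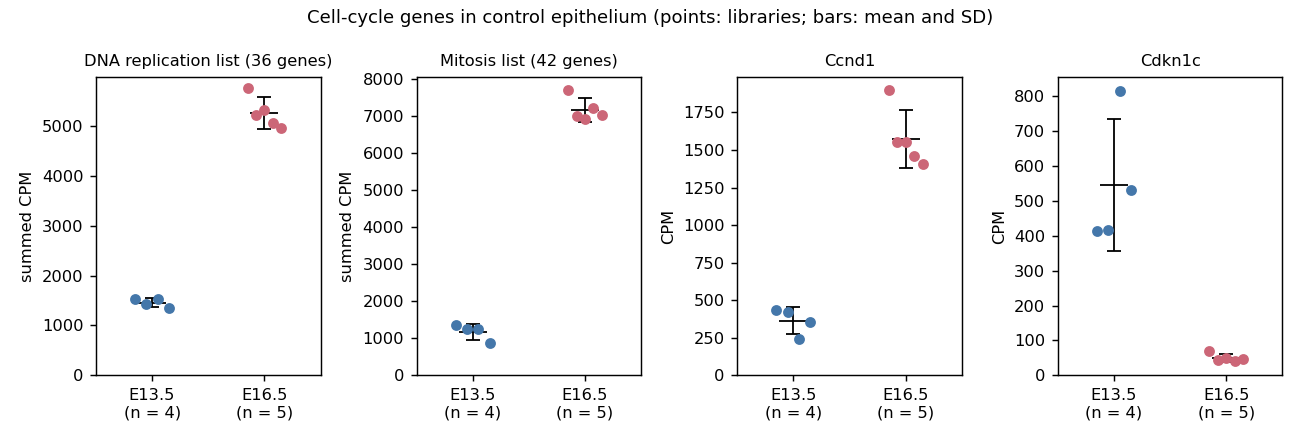
Summed CPM of the replication and mitosis lists and CPM of Ccnd1 and Cdkn1c in the 4 E13.5 and 5 E16.5 control libraries (points), with mean and SD (bars). Both sums and Ccnd1 were higher in every E16.5 library than in any E13.5 library, and Cdkn1c was lower in every one.

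The promoters of the 2 mitosis and the 2 replication genes with the smallest adjusted p that have an entry are shown because genes of these classes are known to be controlled through short promoter motifs. Each runs from 250 bases before the start to 50 after it, 5′ to 3′ on the strand of the gene, from RefSeq (GRCm38.p6). Capitals mark TTTGAA (the core of the cell-cycle genes homology region), CCAAT (the box bound by NF-Y) and GCGGGAA (an E2F-type motif), on either strand. No marked matches overlapped. The entries are Top2a at chr11:99024140-99024439 on the minus strand, Ect2 at chr3:27153829-27154128 on the minus strand (the first of its listed starts), Mcm3 at chr1:20820263-20820562 on the minus strand and Rrm2 at chr12:24708004-24708303 on the plus strand.
Top2a: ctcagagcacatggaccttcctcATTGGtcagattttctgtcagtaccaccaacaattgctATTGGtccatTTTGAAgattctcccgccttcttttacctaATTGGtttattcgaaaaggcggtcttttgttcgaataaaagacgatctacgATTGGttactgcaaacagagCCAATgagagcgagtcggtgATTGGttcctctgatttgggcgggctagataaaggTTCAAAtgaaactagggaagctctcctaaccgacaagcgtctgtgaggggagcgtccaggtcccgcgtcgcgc
Ect2: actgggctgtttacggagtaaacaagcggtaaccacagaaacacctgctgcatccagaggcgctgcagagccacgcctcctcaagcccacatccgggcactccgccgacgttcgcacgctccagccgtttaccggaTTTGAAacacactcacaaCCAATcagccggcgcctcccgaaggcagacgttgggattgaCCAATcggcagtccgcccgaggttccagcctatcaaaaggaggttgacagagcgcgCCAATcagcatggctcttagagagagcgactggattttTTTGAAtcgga
Mcm3: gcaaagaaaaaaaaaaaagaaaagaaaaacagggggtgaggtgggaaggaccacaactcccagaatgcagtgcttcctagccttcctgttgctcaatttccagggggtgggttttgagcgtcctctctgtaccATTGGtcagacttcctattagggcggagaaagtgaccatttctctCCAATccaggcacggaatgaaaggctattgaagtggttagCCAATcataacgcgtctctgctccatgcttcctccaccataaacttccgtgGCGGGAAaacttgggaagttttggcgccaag
Rrm2: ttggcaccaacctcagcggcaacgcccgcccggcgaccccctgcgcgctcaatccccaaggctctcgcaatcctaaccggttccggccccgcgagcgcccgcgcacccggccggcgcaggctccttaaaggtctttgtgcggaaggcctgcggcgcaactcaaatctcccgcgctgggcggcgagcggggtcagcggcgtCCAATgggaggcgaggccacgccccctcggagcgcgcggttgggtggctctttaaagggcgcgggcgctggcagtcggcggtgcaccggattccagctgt

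The Top2a promoter held 6 CCAAT boxes and 2 TTTGAA matches, 1 of these from 23 to 18 bases before the start. Ect2 held 3 CCAAT boxes and 2 TTTGAA matches, Mcm3 held 3 CCAAT boxes and 1 E2F-type match, and Rrm2 held 1 CCAAT box. Over the lists, TTTGAA was found in 25 of 34 mitosis promoters (73.5%) and in 4 of 30 replication promoters (13.3%), against 12.8% of 11878 promoters of tested genes and 17.9% of all 32851 in the table. GCGGGAA was found in 0 of the 34 mitosis promoters and in 12 of the 30 replication promoters (40%), against 7.72% and 4.6%. CCAAT was found in 70.6% and 60.0%, against 38.1% and 37.4%. These are matches of letters in a window, and binding was not measured.

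Genes around the entry into the cell cycle did not move as a block. Of 24 G1 cyclins, CDK inhibitors and antiproliferative genes, 12 rose and 7 fell (median log2 fold change 0.27). Ccnd1 (ENSMUSG00000070348, GRCm38/mm10 chromosome 7, 144929931 to 144939925), cyclin D1, had 438, 419, 239 and 353 CPM at E13.5 and 1902, 1551, 1556, 1463 and 1406 CPM at E16.5. It rose by 2.12 ± 0.22 (edgeR adjusted p = 1.54e-07), with no overlap between the stages. Its partner kinase gene Cdk6 rose by 1.46 ± 0.14 from 90.5 ± 12.5 to 248 ± 20.8 CPM, and the stress-induced Gadd45b by 2.44 ± 0.37 from 3.58 ± 1.397 to 19.4 ± 4.26 CPM.

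On the other side stood genes that restrain division. Cdkn1c, the CDK inhibitor p57, had 415, 415, 815 and 531 CPM at E13.5 and 70.4, 45.3, 49.3, 41.3 and 46.01 CPM at E16.5, and fell by 3.43 ± 0.23 (log2; edgeR adjusted p = 4.58e-10). The highest of its E13.5 libraries was E13.5 control 3, and every E13.5 library was above every E16.5 library. Btg1, an antiproliferative gene, fell by 2.18 ± 0.12 from 793 ± 123 to 175 ± 18.7 CPM, and Ccng2, an atypical cyclin linked to cell-cycle arrest, by 1.37 ± 0.14 from 128 ± 24.7 to 49.4 ± 5.83 CPM. Cdkn1a (ENSMUSG00000023067, GRCm38/mm10 chromosome 17, 29090976 to 29100727), the CDK inhibitor p21, went the other way, with 7.57, 7.94, 8.39 and 16.7 CPM at E13.5 and 24.5, 37.5, 33.8, 41.4 and 43.4 CPM at E16.5. It rose by 1.83 ± 0.28 (edgeR adjusted p = 3.96e-05), and E13.5 control 4, the highest bud library, stayed below the lowest sprout library.

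The second question was what became of the Wnt pathway, the subject of the series. Ctnnb1, the targets Lef1, Axin2 and Sp5 and the ligand genes Wnt6, Wnt4, Wnt7a and Wnt10b fell, the target Lgr5 did not pass, and the targets Nkd2 and Cd44 and the receptor genes Ror1, Ror2 and Fzd7 rose. Ctnnb1 (ENSMUSG00000006932, GRCm38/mm10 chromosome 9, 120929216 to 120960507), which encodes β-catenin and carries the unrecombined allele, had 2421, 2671, 3156 and 2482 CPM at E13.5 and 1208, 1203, 1320.3, 1112 and 1395 CPM at E16.5. Its log2 fold change was -1.10 ± 0.16 (edgeR adjusted p = 9.21e-06), a 2.15-fold lower level with no overlap.

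Of 28 Wnt target and feedback genes, 14 fell and 9 rose (median log2 fold change -0.41). Lef1 (ENSMUSG00000027985, GRCm38/mm10 chromosome 3, 131110471 to 131224356), the nuclear partner of β-catenin and itself a target, had 713, 694, 441 and 596 CPM at E13.5 and 15.1, 32.4, 29.7, 25.7 and 31.2 CPM at E16.5. Axin2 (ENSMUSG00000000142, GRCm38/mm10 chromosome 11, 108920349 to 108950783), a scaffold of the complex that destroys β-catenin and a standard readout of the pathway, had 352, 364, 271 and 260.4 CPM at E13.5 and 23.2, 30.4, 26.01, 22.3 and 37.8 CPM at E16.5. They fell by 4.51 ± 0.22 and 3.48 ± 0.18 (edgeR adjusted p = 1.08e-11 and 1.69e-11), which is 22.8-fold and 11.2-fold. The target transcription factor gene Sp5 had 28.2, 20.3, 17.1 and 21.8 CPM at E13.5 and 0, 0.0647, 0.0752, 0 and 0 CPM at E16.5, so that 3 of the 5 sprout libraries held no count. It fell by 9.46 ± 0.46 (-10.08 without E16.5 control 3). Dkk4, a secreted Wnt inhibitor, was present in every bud library, with 66.5 CPM in E13.5 control 3 and 6.44 to 9.70 CPM in the other 3, and 1 count was left over the 5 sprout libraries. The ratio of its means was 3168 (95% counting interval 581 to 128105), and its fitted log2 fold change was -11.02 ± 1.11 (-9.53 without E13.5 control 3 and -12.41 without E16.5 control 5).

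Other members of the same list moved in the opposite direction. Nkd2, which binds Dishevelled and dampens Wnt signals, had 6.54, 5.03, 11.1 and 12.4 CPM at E13.5 and 131, 128, 151, 173 and 94.7 CPM at E16.5. The adhesion receptor gene Cd44 had 19.1, 21.98, 22.6 and 18.8 CPM at E13.5 and 186, 112, 163, 139.7 and 189.8 CPM at E16.5. Both stood apart between the stages, with rises of 3.95 ± 0.29 and 2.94 ± 0.24 (edgeR adjusted p = 3.07e-09 and 1.02e-08). Ccnd1, described above, is also in this list. Lgr5, the R-spondin receptor and a known target, had 225, 244, 104 and 181 CPM at E13.5 and 178, 219, 154, 185 and 237 CPM at E16.5. Its stages overlapped and it did not pass (log2 fold change 0.04 ± 0.23, edgeR adjusted p = 0.901).

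Among 33 Wnt ligand and receptor genes, 31 were tested, 13 fell and 9 rose (median log2 fold change -0.63). All 3 members with the smallest adjusted p among those that fell were ligands. Wnt6 had 430.1, 438, 359 and 455 CPM at E13.5 and 33.6, 40.2, 38.5, 28.7 and 45.8 CPM at E16.5, Wnt4 had 155, 145, 129.6 and 171 CPM at E13.5 and 6.92, 6.43, 7.82, 8.21 and 13.9 CPM at E16.5 and Wnt7a had 137, 128, 126 and 119 CPM at E13.5 and 1.31, 0.485, 2.18, 0.402 and 0.9995 CPM at E16.5. Every bud library was far above every sprout library, and the falls were 3.49 ± 0.16, 4.12 ± 0.20 and 6.90 ± 0.38 (log2; edgeR adjusted p = 6.93e-12, 1.08e-11 and 1.05e-10). The ligand gene Wnt10b, expressed in the mammary line from its first stages, fell by 4.38 ± 0.32 from 222 ± 16.8 to 10.7 ± 5.55 CPM. The corresponding 3 that rose were receptors. Ror1 and Ror2 encode receptor kinases that bind Wnt5a and signal without β-catenin, and Fzd7 encodes a Frizzled receptor. Ror1 had 6.06, 4.76, 7.36 and 6.15 CPM at E13.5 and 83.9, 104, 87.2, 99.5 and 109 CPM at E16.5 and rose by 3.99 ± 0.20 (edgeR adjusted p = 1.35e-11). Ror2 rose by 2.71 ± 0.24 from 10.6 ± 1.01 to 69.2 ± 6.65 CPM and Fzd7 by 1.71 ± 0.16 from 106 ± 14.6 to 348 ± 43.6 CPM, again without overlap (edgeR adjusted p = 2.59e-08 and 4.03e-08).

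**Figure D4:**
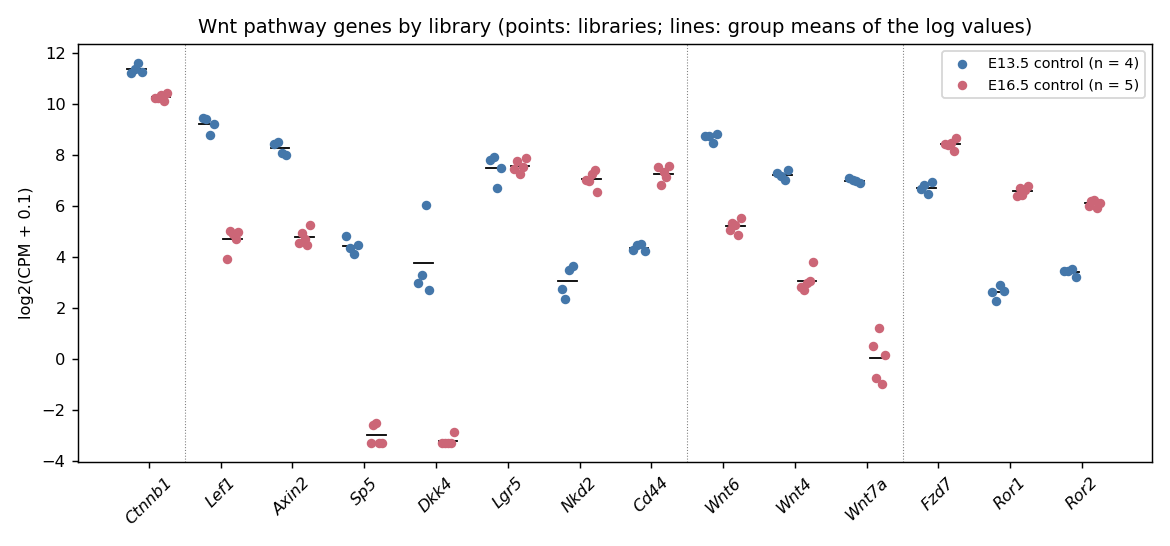
Levels of 14 Wnt pathway genes, as log2(CPM + 0.1), in each of the 4 E13.5 (blue) and 5 E16.5 (red) control libraries, with a line at the mean of the log values. From left to right stand Ctnnb1, targets and feedback genes, ligands and receptors. Ctnnb1, Lef1, Axin2, Sp5, Dkk4 and the 3 ligands were lower at E16.5, Nkd2, Cd44 and the receptors higher, and Lgr5 overlapped.

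Genes known to shape the embryonic mammary gland fell more often than they rose: of 30, 20 fell and 8 rose, with a median log2 fold change of -1.46, the lowest of the 30 pathway lists. The falls included the transcription factor genes Tbx3 (ENSMUSG00000018604, GRCm38/mm10 chromosome 5, 119670669 to 119684724), without which mammary buds do not form properly, and Gata3 (ENSMUSG00000015619, GRCm38/mm10 chromosome 2, 9857078 to 9890034), which is needed for bud and later luminal development. Tbx3 had 1429.7, 1361, 1036 and 1493 CPM at E13.5 and 386, 479, 466, 404 and 422 CPM at E16.5 and Gata3 had 1088, 997, 839.7 and 1268 CPM at E13.5 and 203, 261, 247, 194 and 208 CPM at E16.5. They fell by 1.62 ± 0.13 and 2.24 ± 0.18 (edgeR adjusted p = 8.2e-09 and 7.01e-09) with no overlap. Pthlh (ENSMUSG00000048776, GRCm38/mm10 chromosome 6, 147252101 to 147264183), which encodes parathyroid hormone-related protein, had 287, 265, 218 and 293 CPM at E13.5 and 106, 241, 146, 159 and 153 CPM at E16.5. It fell by 0.72 ± 0.22 (edgeR adjusted p = 0.012), and E16.5 control 2 lay within the bud range. The homeobox gene Hoxc8 fell by 6.73 ± 0.40 from 66.7 ± 6.603 to 0.628 ± 0.291 CPM. Nrg3, a ligand for Erbb4 that helps to place the buds, had 44.96, 34.3, 19.03 and 18.6 CPM at E13.5 and 0, 0, 0.601, 0.235 and 0.143 CPM at E16.5, a fall by 7.24 ± 0.79 (-8.27 without E16.5 control 3).

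The members that rose included 3 regulators known from later mammary or skin appendage development. Sox10, a transcription factor of neural crest and of mammary stem and progenitor cells, had 1.95, 0.833, 1.505 and 1.003 CPM at E13.5 and 535, 527, 614, 615 and 480.1 CPM at E16.5, a rise of 8.70 ± 0.58 (edgeR adjusted p = 5.06e-09). Nfib, a nuclear factor I gene, had 407, 396, 299.9 and 374 CPM at E13.5 and 1599, 1612, 1452, 1447 and 1462 CPM at E16.5, and Sostdc1, a secreted inhibitor of Bmp and Wnt signals, had 44.4, 36.3, 54.9 and 48.8 CPM at E13.5 and 254, 279, 263, 276 and 276 CPM at E16.5. Their rises of 2.04 ± 0.12 and 2.55 ± 0.17 left no overlap between the stages (edgeR adjusted p = 1.59e-10 and 7.48e-10).

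Growth factor pathways changed member by member. In the Fgf and ERK feedback list, 12 of 29 genes rose and 8 fell (median log2 fold change 0.62). The receptor genes moved apart: Fgfr2, the main Fgf receptor of the mammary epithelium, had 926, 934, 621 and 904 CPM at E13.5 and 280.4, 332, 309.5, 259 and 345 CPM at E16.5, and Fgfr1 had 150.3, 142, 131 and 133 CPM at E13.5 and 257, 333, 345, 297 and 391 CPM at E16.5. Fgfr2 fell by 1.47 ± 0.14 and Fgfr1 rose by 1.22 ± 0.13 (edgeR adjusted p = 8.63e-08 and 3.28e-07), neither with overlap. Of the genes that ERK signalling induces, Etv5 rose by 2.52 ± 0.16 from 92.2 ± 16.9 to 528 ± 29.9 CPM and Dusp6, a phosphatase that inactivates ERK, by 1.54 ± 0.13 from 221 ± 41.4 to 643 ± 62.9 CPM. Spred3, an inhibitor of the Ras and ERK cascade, fell by 3.06 ± 0.21 from 74.8 ± 13.4 to 8.98 ± 2.68 CPM, and the placode ligand gene Fgf20 by 4.47 ± 0.33 from 15.6 ± 5.24 to 0.696 ± 0.343 CPM.

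In the Bmp, TGF-β and activin list, 11 of 30 rose and 11 fell (median log2 fold change -0.10). The ligand genes Bmp2 and Bmp4 fell. Bmp2 had 289, 319, 236 and 216 CPM at E13.5 and 2.802, 4.07, 4.96, 5.696 and 2.14 CPM at E16.5 and Bmp4 had 71.4, 75.4, 111 and 75.2 CPM at E13.5 and 0.321, 1.75, 1.88, 1.61 and 1.71 CPM at E16.5, falls by 6.07 ± 0.25 and 5.85 ± 0.33 (edgeR adjusted p = 3.35e-12 and 1.94e-10). Id3, a Bmp-induced inhibitor of differentiation factors, fell by 3.28 ± 0.25 from 273 ± 72.01 to 28.04 ± 7.39 CPM, while its relative Id4 rose by 2.96 ± 0.28 from 42.5 ± 6.25 to 331 ± 27.9 CPM. Inhbb, the subunit of activin B, went from 0.0334 to 2.14 CPM over the bud libraries to 273 to 335 CPM over the sprout libraries, a rise of 8.68 ± 0.70 (10.16 without E13.5 control 4). Tgfb3 rose by 1.70 ± 0.17 from 10.4 ± 1.28 to 33.99 ± 4.1997 CPM.

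The Edar and NF-κB list, which covers the ectodysplasin pathway of skin appendages, had 7 genes that rose and 8 that fell of 22 (median log2 fold change -0.43). Tnfrsf19, a relative of Edar, fell by 2.62 ± 0.18 from 285 ± 20.3 to 46.4 ± 8.798 CPM and the adhesion gene Icam1 by 1.81 ± 0.18 from 48.5 ± 11.3 to 13.9 ± 2.31 CPM. Nfkb1, the p50 precursor, rose by 0.71 ± 0.17 from 55.1 ± 16.2 to 90.01 ± 5.98 CPM. The chemokine gene Cxcl10 had no count at E13.5 and 0.643 to 2.07 CPM at E16.5, at least 47.1-fold higher. Tnf itself, the founding member of the cytokine family of ectodysplasin, rose by 2.45 ± 0.82 from 1.64 ± 1.402 to 9.02 ± 3.0 CPM, and did not pass without E13.5 control 4 (2.21, edgeR adjusted p = 0.0518). Its log2 fold change was 3.09 without E13.5 control 2.

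Among 12 tested Hedgehog genes, 5 rose and 4 fell (median log2 fold change 0.41), and 2 fell without E13.5 control 1 or without E13.5 control 2. The ligand gene Shh had at most 0.592 CPM in any of the 9 libraries and did not pass (0.41 ± 0.85, edgeR adjusted p = 0.726). Without E13.5 control 1, which held most of its few bud counts, it passed (3.90 without E13.5 control 1). Ptch1, the receptor and a target, overlapped between the stages (33.9 ± 13.7 to 35.8 ± 3.16 CPM) and did not pass (0.08 ± 0.23, edgeR adjusted p = 0.81). The effector gene Gli2 fell by 1.58 ± 0.24 from 58.8 ± 23.1 to 19.7 ± 4.58 CPM. Hhip, a Hedgehog-binding inhibitor, had 1 count over the E13.5 libraries and 3.61 to 5.56 CPM at E16.5, a ratio of 596 (95% counting interval 111 to 24434). Gas1, a co-receptor, rose by 1.96 ± 0.17 from 38.9 ± 4.702 to 151 ± 17.8 CPM, and Sufu, which holds back Gli factors, by 0.82 ± 0.15 from 59.4 ± 13.004 to 105 ± 7.12 CPM. Gli3, the main repressor among the Gli factors, fell by 0.42 ± 0.13 from 112 ± 24.3 to 84.2 ± 6.95 CPM, and did not pass without E13.5 control 1 (-0.34, edgeR adjusted p = 0.0503), without E13.5 control 2 (-0.32, edgeR adjusted p = 0.0599) or with length offsets, the scaling per gene and library implied by the deposited normalized table (-0.25, edgeR adjusted p = 0.383).

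In the Notch list, 7 of 20 tested genes rose and 2 fell (median log2 fold change 0.24). Without E13.5 control 3, 5 fell. The ligand gene Dll1 had 2.51, 1.81, 2.07 and 5.24 CPM at E13.5 and 288, 324, 315, 268 and 269 CPM at E16.5, a rise of 6.65 ± 0.32 with every sprout library above every bud library (edgeR adjusted p = 1.55e-11). The target genes Hey1 and Nrarp rose by 3.18 ± 0.26 and 1.76 ± 0.22, from 10.7 ± 3.71 to 96.96 ± 15.3 CPM and from 22.1 ± 4.397 to 74.9 ± 5.897 CPM. The ligand gene Jag2 fell by 0.71 ± 0.18 from 229 ± 64.5 to 139.7 ± 16.8 CPM, with E13.5 control 3 inside the E16.5 range. Dtx1, an E3 ligase that modulates Notch, fell by 2.80 ± 0.62 from 2.03 ± 0.138 to 0.288 ± 0.129 CPM, and did not pass with length offsets (-2.37, edgeR adjusted p = 0.0503).

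Of 18 genes of the Egf receptor family and its ligands, 8 rose and 4 fell (median log2 fold change 0.59). The ligand genes exchanged places. Nrg1 had 0, 0.238, 0 and 0.226 CPM at E13.5 and 22.6, 20.4, 26.1, 28.7 and 19.95 CPM at E16.5, a rise of 7.61 ± 0.63 (8.23 without E13.5 control 2), and Tgfa had 1.66, 0.208, 1.84 and 4.08 CPM at E13.5 and 76.1, 110.5, 113, 96.1 and 138 CPM at E16.5, a rise of 5.78 ± 0.59 (6.44 without E13.5 control 4), whereas Nrg3, described above, was nearly lost. Among the receptors, Erbb3 rose by 1.28 ± 0.16 from 148 ± 27.96 to 359.6 ± 11.6 CPM and Erbb4 fell by 3.17 ± 0.54 from 130.1 ± 36.8 to 14.5 ± 4.76 CPM (edgeR adjusted p = 2.26e-06 and 0.000141). Egfr itself fell by 0.63 ± 0.14 from 85.7 ± 19.3 to 55.5 ± 5.86 CPM, and did not pass with length offsets (-0.03, edgeR adjusted p = 0.944).

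In the insulin-like growth factor axis, 3 of 15 tested genes rose and 5 fell (median log2 fold change -0.25), and 8 fell without E13.5 control 3. The binding protein genes Igfbp4 and Igfbp5 fell by 0.89 ± 0.14 and 1.52 ± 0.25, from 775 ± 81.001 to 417 ± 55.005 CPM and from 615 ± 224 to 214 ± 58.9 CPM, and Igfbp3 rose by 0.71 ± 0.20 from 66.4 ± 20.5 to 109 ± 17.97 CPM. The receptor gene Igf2r, which clears Igf2, rose by 0.75 ± 0.13 from 322 ± 62.6 to 544 ± 49.3 CPM. Of the adaptors, Irs2 rose by 0.89 ± 0.19 and Irs1 fell by 0.74 ± 0.14.

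Hormone receptors and mediators split into 5 that rose and 7 that fell of 21 (median log2 fold change -0.17). The estrogen receptor gene Esr1 had 28.2, 27.7, 41.001 and 31.5 CPM at E13.5 and 4.85, 5.98, 3.91, 2.45 and 2.64 CPM at E16.5, and fell by 3.02 ± 0.62 (edgeR adjusted p = 0.000704). The progesterone receptor gene Pgr had 7.48, 5.98, 2.68 and 2.88 CPM at E13.5 and 35.5, 31.9, 29.8, 33.5 and 29.1 CPM at E16.5, a rise of 2.75 ± 0.31 (edgeR adjusted p = 5.94e-07). Both stood apart between the stages, in opposite directions. The prolactin receptor gene Prlr rose by 5.15 ± 0.89 from 0.242 ± 0.291 to 8.76 ± 1.05 CPM (6.03 without E13.5 control 4), and the glucocorticoid receptor gene Nr3c1 by 1.77 ± 0.21 from 14.7 ± 4.89 to 50.2 ± 6.097 CPM. The retinoic acid receptor genes Rara and Rarb fell by 0.95 ± 0.15 and 2.18 ± 0.35, from 172 ± 28.6 to 89.1 ± 12.1 CPM and from 20.6 ± 4.51 to 4.54 ± 1.62 CPM, and the thyroid hormone receptor gene Thra by 0.93 ± 0.15 from 70.99 ± 14.96 to 37.3 ± 4.94 CPM.

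Genes of the later cell lineages were compared next. Of 24 tested luminal genes, 13 rose and 6 fell (median log2 fold change 0.58). The epithelial transcription factor gene Ehf had 0.385, 0.149, 0 and 0 CPM at E13.5 and 40.6, 45.4, 43.03, 47.7 and 44.4 CPM at E16.5 and rose by 8.28 ± 0.52 (9.61 without E13.5 control 1). Aldh1a3, the retinaldehyde dehydrogenase that marks luminal progenitors in the adult gland, had 2.07, 0.238, 0.736 and 0.0324 CPM at E13.5 and 195, 175, 175, 170.2 and 148 CPM at E16.5 and rose by 7.79 ± 0.64 (9.01 without E13.5 control 1). Krt19, a luminal keratin gene, fell by 2.43 ± 0.33 from 26.8 ± 9.35 to 4.96 ± 1.797 CPM, beside the falls of Gata3 and Esr1 given above. Krt18, the keratin that pairs with Krt8, rose by 0.74 ± 0.26 from 120.2 ± 20.7 to 200.1 ± 45.7 CPM. It did not pass without E13.5 control 1 or 2 or without E16.5 control 1 or 4 (0.62 to 0.69, edgeR adjusted p = 0.0503 to 0.0759).

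Of 25 basal and myoepithelial genes, 12 rose and 3 fell (median log2 fold change 0.84). Acta2 (ENSMUSG00000035783, GRCm38/mm10 chromosome 19, 34241090 to 34255590), the smooth muscle actin of myoepithelial cells, had 0, 0.506, 2.58 and 0 CPM at E13.5 and 32.4, 16.1, 17.4, 25.3 and 10.1 CPM at E16.5. It rose by 4.72 ± 1.26 (edgeR adjusted p = 0.00581; 6.86 without E13.5 control 3), and all 5 sprout libraries were above all 4 bud libraries. Tagln, a smooth muscle actin-binding protein, rose by 4.19 ± 0.43 from 0.715 ± 0.441 to 13.1 ± 3.02 CPM, and the keratin gene Krt17 by 4.63 ± 0.46 from 27.5 ± 13.4 to 682 ± 141 CPM. Trp63, the p63 transcription factor of basal and stratified epithelia, had 439.6, 435, 338 and 444 CPM at E13.5 and 76.2, 103, 88.4, 87.4 and 106 CPM at E16.5 and fell by 2.17 ± 0.12 (edgeR adjusted p = 4.83e-11). The integrin α6 gene Itga6 fell by 0.62 ± 0.16 from 784 ± 181 to 511 ± 42.4 CPM. The P-cadherin gene Cdh3 fell by 0.38 ± 0.14 from 285 ± 42.01 to 219 ± 13.3 CPM, and did not pass without E13.5 control 1, 2 or 4 or without E16.5 control 5 (-0.33 to -0.35, edgeR adjusted p = 0.0624 to 0.0853).

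Of the milk and secretory list, 12 of 17 genes in the table were tested, and 9 rose and 1 fell (median log2 fold change 4.93). The summed level of the 17 moved far less, from 174 to 230 CPM in bud libraries to 234 to 316 CPM in sprout libraries. Of the 17, 10 had no count at E13.5, so the fitted values of such members depend on the prior count and are no bounds. Wfdc18 and Slpi, small secreted proteins with a whey acidic protein domain, had no count at E13.5 and reached 1.25 to 6.20 CPM and 0.413 to 1.52 CPM at E16.5, at least 141-fold and 39.4-fold higher. The transferrin gene Trf rose by 4.19 ± 0.61 from 2.41 ± 2.19 to 44.2 ± 7.02 CPM (4.94 without E13.5 control 4). Xdh, xanthine oxidoreductase of the milk fat globule, fell by 1.18 ± 0.24 from 125 ± 27.5 to 54.9 ± 19.2 CPM.

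Genes of cell shape, contact and surroundings follow, against a background in which 47.7% of all tested autosomal genes passed. In the actomyosin and cell motility list, 22 of 29 rose and 2 fell (median log2 fold change 1.03), and 1 fell without E13.5 control 2 or without E13.5 control 4. The summed level of this list was 8383 to 10350.2 CPM in bud libraries and 17720.7 to 20952 CPM in sprout libraries. Vcl, vinculin of focal adhesions, had 104, 103, 82.9 and 102 CPM at E13.5 and 385, 323, 321, 359 and 333 CPM at E16.5. Actn4, an actin cross-linker, had 325, 321, 263 and 369 CPM at E13.5 and 896, 879, 1008, 915 and 901 CPM at E16.5, and Mcam, a cell surface adhesion molecule of the immunoglobulin family, had 16.7, 16.03, 15.6 and 17.9 CPM at E13.5 and 140.2, 127, 119, 138 and 85.4 CPM at E16.5. The stages did not overlap for these 3 genes, with rises of 1.81 ± 0.14, 1.53 ± 0.15 and 2.88 ± 0.17 (edgeR adjusted p = 4.37e-09, 6.79e-08 and 1.25e-10). The members that fell were Limk2, a kinase that inactivates cofilin, and Pxn, paxillin of focal adhesions. Limk2 fell by 0.85 ± 0.14 from 198 ± 28.2 to 110.05 ± 5.86 CPM and turned with length offsets (0.10, edgeR adjusted p = 0.834). Pxn fell by 0.58 ± 0.20 from 132 ± 42.3 to 88.3 ± 4.802 CPM, with E13.5 control 3 below the sprout range, and did not pass without E13.5 control 1, 2 or 4 (-0.45 to -0.55, edgeR adjusted p = 0.0508 to 0.0886).

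In the adhesion and junction list, 14 of 34 rose and 8 fell (median log2 fold change 0.37). Desmosomal genes led the rises: Dsg3, a desmosomal cadherin of stratified epithelium, had 2.66, 3.66, 4.98 and 4.303 CPM at E13.5 and 102, 156, 134, 141 and 150.1 CPM at E16.5, and Pkp1, a plaque protein, had 8.58, 8.39, 12.7 and 5.86 CPM at E13.5 and 137, 238, 202, 209 and 244 CPM at E16.5. They rose by 5.13 ± 0.31 and 4.54 ± 0.49 (edgeR adjusted p = 3.93e-10 and 1.11e-06), and Dsg2 by 1.13 ± 0.14 from 133 ± 27.96 to 291 ± 30.6 CPM. The connexin genes Gjb6 and Gja1 fell by 6.06 ± 0.77 and 0.70 ± 0.14, from 13.1 ± 5.66 to 0.196 ± 0.191 CPM and from 539 ± 4.36 to 332 ± 25.1 CPM, and Nectin1 fell by 0.83 ± 0.16 from 497 ± 87.3 to 279.6 ± 29.7 CPM.

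Of 19 genes of apical polarity and lumen, 8 rose and 2 fell (median log2 fold change 0.04). Ezr (ezrin, which links the apical membrane to actin), Podxl (podocalyxin) and Rab25 rose by 1.37 ± 0.17, 1.81 ± 0.27 and 1.31 ± 0.27, from 138 ± 9.85 to 355 ± 31.8 CPM, from 30.2 ± 3.92 to 106 ± 17.5 CPM and from 13.04 ± 5.27 to 32.3 ± 4.26 CPM. Cgn (cingulin of tight junctions) and Sytl2 fell by 1.26 ± 0.19 and 1.48 ± 0.24, from 53.3 ± 4.98 to 22.3 ± 3.54 CPM and from 10.3 ± 1.397 to 3.71 ± 0.964 CPM.

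The basement membrane and matrix list split into 11 that rose and 8 that fell of 26 (median log2 fold change 0.08). Laminin chains went separate ways. The γ chain gene Lamc1 had 270.3, 315, 174 and 292 CPM at E13.5 and 1336, 1308, 1201, 1063 and 1189 CPM at E16.5, a rise of 2.21 ± 0.16 (edgeR adjusted p = 2.15e-09), whereas the α chain gene Lama3 fell by 1.54 ± 0.12 from 154 ± 24.6 to 52.9 ± 4.97 CPM. Fbln1, fibulin 1, rose by 1.73 ± 0.14 from 74.9 ± 2.77 to 248 ± 21.6 CPM. The steepest of the named falls was that of Fras1, a matrix protein that anchors epithelium to mesenchyme in embryonic skin, which had 1732, 1930.05, 1197 and 1416 CPM at E13.5 and 117, 122, 81.2, 90.4 and 105 CPM at E16.5 and fell by 3.93 ± 0.26 (edgeR adjusted p = 6.15e-10). Npnt, nephronectin, fell by 2.06 ± 0.11 from 205 ± 13.47 to 48.9 ± 6.64 CPM.

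Among 15 integrin genes, 8 rose and 2 fell (median log2 fold change 0.64). Itgb8, Itga8 and Itgb4 rose by 2.88 ± 0.22, 1.81 ± 0.18 and 1.41 ± 0.18, and Itgb5 and Itga6 fell by 1.02 ± 0.13 and 0.62 ± 0.16. Itgb4 and Itga6 encode the partners of 1 receptor, the α6β4 integrin of hemidesmosomes, and moved in opposite directions, from 129 ± 34.8 to 342 ± 29.7 CPM and from 784 ± 181 to 511 ± 42.4 CPM.

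Of 23 tested matrix proteases and inhibitors, 13 rose and 3 fell (median log2 fold change 0.83). All 3 that fell were matrix metalloproteinases: Mmp2 had 258, 267, 265 and 212 CPM at E13.5 and 38.5, 32.7, 15.2, 20.6 and 16.96 CPM at E16.5, and Mmp11 and Mmp16 fell by 2.84 ± 0.20 and 3.149 ± 0.29 from 80.5 ± 11.1 to 11.2 ± 1.52 CPM and from 82.3 ± 15.8 to 9.27 ± 1.78 CPM. Mmp2 fell by 3.33 ± 0.22 (edgeR adjusted p = 5.2e-10). Adamts9, a secreted protease of proteoglycans, had 3.85, 2.97, 5.55 and 2.59 CPM at E13.5 and 141, 193, 189, 159 and 199 CPM at E16.5, a rise of 5.56 ± 0.26 (edgeR adjusted p = 8.94e-12). Plau, urokinase, rose by 4.43 ± 0.31 from 1.98 ± 1.15 to 42.8 ± 5.05 CPM, and Serpine2, a protease inhibitor, by 2.56 ± 0.23 from 69.9 ± 6.83 to 412 ± 31.5 CPM.

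Axon guidance genes, whose products also guide cells in epithelia, mostly fell: of 30, 18 fell and 4 rose (median log2 fold change -0.87). Sema3a, a repulsive semaphorin, had 166, 173, 194 and 210.4 CPM at E13.5 and 11.4, 13.4, 7.07, 9.15 and 11.2 CPM at E16.5. Unc5b, a netrin receptor, had 705, 702, 409 and 713 CPM at E13.5 and 31.3, 43.8, 33.6, 39.9 and 44.98 CPM at E16.5, and Efnb2, the ligand ephrin B2, had 657, 659, 475 and 717 CPM at E13.5 and 74.6, 86.3, 69.1, 67.9 and 81.6 CPM at E16.5. Every bud library was above every sprout library in these 3 genes, which fell by 4.15 ± 0.19, 4.03 ± 0.21 and 3.05 ± 0.15 (edgeR adjusted p = 6.93e-12, 1.85e-11 and 1.55e-11). A related semaphorin gene went the other way. Sema3b had 3.96, 3.27, 2.94 and 2.26 CPM at E13.5 and 489, 518, 561, 463 and 518 CPM at E16.5, a rise of 7.35 ± 0.51 (edgeR adjusted p = 7.51e-09). The ephrin receptor genes Ephb3 and Epha2 rose by 0.86 ± 0.15 and 0.99 ± 0.20.

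Metabolic genes were counted in a pair of lists. Of 25 genes of cholesterol and fatty acid synthesis, 18 rose and none fell at the threshold (median log2 fold change 0.77). Without E13.5 control 3, 1 fell. Insig1, a sterol-regulated sensor, rose by 1.62 ± 0.17 from 12.8 ± 3.84 to 39.1 ± 3.08 CPM, and Acaca, which makes malonyl-CoA for fatty acids, by 0.98 ± 0.12 from 121 ± 16.3 to 239.7 ± 8.87 CPM. Of 25 glycolysis and hypoxia genes, 15 rose and 3 fell (median 1.11). The enolase gene Eno1 had 183, 169, 203 and 142 CPM at E13.5 and 1139.6, 834, 873, 921 and 643 CPM at E16.5, and the aldolase genes Aldoa and Aldoc rose by 1.98 ± 0.21 and 3.16 ± 0.32, from 151 ± 31.1 to 597 ± 80.5 CPM and from 10.3 ± 2.83 to 92.1 ± 19.3 CPM. Eno1 rose by 2.34 ± 0.22 (edgeR adjusted p = 4.83e-08). Of the 3 that fell, Vegfa did so by 1.08 ± 0.22 from 111 ± 7.52 to 52.1 ± 6.897 CPM and Bnip3 by 1.15 ± 0.26 from 24.1 ± 6.36 to 10.9 ± 3.49 CPM. The neuronal enolase gene Eno2 fell by 2.11 ± 0.49 from 4.48 ± 1.88 to 1.04 ± 0.286 CPM, and did not pass with length offsets (-1.88, edgeR adjusted p = 0.0801).

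In the interferon response list, 4 of 19 tested genes rose and 3 fell (median log2 fold change 0.31). The class I histocompatibility gene H2-D1 rose by 1.41 ± 0.31 from 9.93 ± 4.29 to 26.4 ± 1.54 CPM and Ifitm3 by 0.97 ± 0.30 from 72.5 ± 8.496 to 142 ± 37.3 CPM. Stat2, Irf9 and the RNA sensor gene Ifih1 fell by 1.42 ± 0.22, 0.88 ± 0.19 and 2.66 ± 0.45. H2-K1, a close relative of H2-D1 with which it may share reads, rose by 1.08 ± 0.23 from 9.91 ± 1.77 to 20.9 ± 3.698 CPM, and did not pass with length offsets (0.07, edgeR adjusted p = 0.886).

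Of 21 immediate-early and stress genes, 13 rose and 1 fell (median log2 fold change 1.77), and 2 fell without E13.5 control 1 or without E13.5 control 2. These genes respond within minutes to growth factors and to stress. Their summed level was 689 to 1069 CPM in bud libraries and 1348 to 3213 CPM in sprout libraries. Egr2 had 0.887, 1.695, 3.11 and 2.65 CPM at E13.5 and 69.3, 103, 116, 118 and 69.1 CPM at E16.5 and Nr4a1 had 6.86, 5.56, 7.73 and 10.6 CPM at E13.5 and 103, 90.7, 153, 145 and 40.8 CPM at E16.5, with rises of 5.51 ± 0.78 and 3.79 ± 0.59, and Ier3 rose by 3.14 ± 0.46. Fosl2, an AP-1 subunit, fell by 1.17 ± 0.26 from 204 ± 44.2 to 90.7 ± 17.2 CPM.

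Neighbouring skin epithelium was described by markers of epidermis and hair placodes. Of 39 tested epidermal differentiation genes, 23 rose and none fell (median log2 fold change 2.93), but their summed level stayed low, at 103 to 128 CPM in bud and 254 to 519 CPM in sprout libraries. Krt80 and the desmosomal cadherin gene Dsc1 reached 15.5 to 23.5 CPM and 8.67 to 14.4 CPM at E16.5, from at most 0.476 and 0.0647 CPM (6.91 without E13.5 control 2 for Krt80 and 11.34 without E13.5 control 4 for Dsc1). Grhl1, a transcription factor of epidermal barrier genes, rose by 1.80 ± 0.28 from 6.9996 ± 1.09 to 24.3 ± 5.54 CPM. The part of skin epithelium left on the tissue in these levels was not tested. Of 20 hair placode genes, 7 rose and 7 fell (median 0.24). Their summed level was lower at E16.5, at 1098 to 1489 CPM in bud and 627 to 840 CPM in sprout libraries. Sox9, a transcription factor of appendage progenitors, rose by 1.33 ± 0.19 from 131 ± 32.2 to 328 ± 56.2 CPM, Foxi3 by 2.66 ± 0.37 from 7.35 ± 4.84 to 46.4 ± 4.24 CPM and Foxq1 by 2.09 ± 0.25 from 6.62 ± 1.41 to 28.2 ± 2.33 CPM, beside the falls of Bmp2, Fgf20 and Wnt10b given above.

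Markers of cells outside the epithelium were counted in the same way. Of 17 tested mesenchyme markers, 1 rose and 6 fell, and without E13.5 control 3 these counts were 5 and 3. The summed level of all 18 was 1023 CPM in E13.5 control 3, 391 to 658 CPM in the other bud libraries and 258 to 635 CPM in the sprout libraries. Thy1 fell by 2.39 ± 0.25 from 34.1 ± 5.502 to 6.49 ± 3.02 CPM. Immune cell markers were near 0 in the bud, with sums of 2.57 to 6.25 CPM, and reached 22.8 to 35.1 CPM in the sprout, where 9 of 13 tested passed and none fell. Tyrobp, an adaptor of myeloid cells, had no count at E13.5 and 0.643 to 2.17 CPM at E16.5. Endothelial markers summed to 4.402 to 15.6 CPM and then to 17.7 to 32.3 CPM, and 3 of 9 tested rose. The endothelial receptor gene Flt1 had 0, 0, 0.569 and 0 CPM at E13.5 and 2.54, 2.97, 4.13, 3.32 and 2.78 CPM at E16.5, a rise of 4.49 ± 0.87 (9.57 without E13.5 control 3). Dpt, dermatopontin of fibroblasts, was the mesenchyme marker that rose, from no count to 0.09698 to 1.77 CPM.

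Melanocyte markers rose from sums of 21.2 to 25.3 CPM to sums of 103 to 171 CPM, with 6 of 8 past the threshold. Dct, a melanin synthesis enzyme, had 1.39, 2.41, 5.32 and 0.615 CPM at E13.5 and 78.8, 45.5, 64.9, 91.3 and 59.5 CPM at E16.5, a rise of 4.81 ± 0.53 (5.52 without E13.5 control 3). Neural and Schwann cell markers summed to 39.3 to 57.4 CPM and then to 523 to 657 CPM, with 5 of 13 higher and 2 lower. This sum was mostly Sox10, which mammary epithelium is also known to express: without Sox10 it was 37.8 to 55.4 CPM at E13.5 and 41.5 to 44.1 CPM at E16.5. Skeletal muscle, Merkel cell, adipocyte and erythroid markers had 1 or 2 members higher each and at most 1 lower. The muscle myosin gene Myh3, the Merkel cell factor gene Isl1 and the globin gene Hbb-bt had no count at E13.5. They reached 11.7 CPM in E16.5 control 5 and 0.146 to 0.94 CPM in the other 4 sprout libraries for Myh3, 0.0323 to 1.28 CPM for Isl1 and 0 to 2.43 CPM for Hbb-bt, which did not pass without E13.5 control 1, 2 or 4 (7.79, edgeR adjusted p = 0.0527 to 0.0537). The touch channel gene Piezo2 fell by 0.69 ± 0.15 from 51.4 ± 4.02 to 31.98 ± 4.75 CPM, and did not pass with length offsets (-0.60, edgeR adjusted p = 0.141). Of the adipocyte factors, Cebpa rose by 0.99 ± 0.31 from 16.6 ± 3.87 to 32.97 ± 4.63 CPM and Pparg fell by 1.41 ± 0.49 from 3.38 ± 1.15 to 1.27 ± 0.5596 CPM. Cebpa did not pass without E13.5 control 2 (0.84, edgeR adjusted p = 0.05), and Pparg did not without E13.5 control 2 or 3 or without E16.5 control 2 (-1.20 to -1.28, edgeR adjusted p = 0.0526 to 0.0628). The part of other cells in the changes described above was not tested.

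Among genes with at least 10 CPM in the higher group, 7 of the 10 largest rises had no count in any bud library. Map3k21, a mixed lineage kinase, had 54.6, 43.96, 52.7, 50.5 and 50.1 CPM at E16.5, at least 2153-fold higher. Lcn2, lipocalin 2 of secretory epithelia, had 93.4, 33.2, 34.9, 58.7 and 27.7 CPM, at least 2119-fold higher, and the small secreted protein gene Cytl1 had 78.3, 45.7, 30.1, 61.95 and 19.8 CPM, at least 2017-fold higher. Map3k21 was even over the 5 libraries, whereas Lcn2 and Cytl1 varied by more than 3-fold between them. The forkhead factor gene Foxc1 reached 25.6 to 46.5 CPM (at least 1573-fold), the tetraspanin gene Tspan8 20.2 to 31.8 CPM (at least 1125-fold), the mucin gene Muc15 16.6 to 19.2 CPM (at least 747-fold) and the adaptor gene Fyb 9.995 to 21.5 CPM (at least 719-fold). These bounds set the bud at 3 counts over its 4 libraries.

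The other 3 of the 10 had 1 to 3 counts over the bud libraries. Kcnn4, a calcium-activated potassium channel, had 129, 89.7, 144, 114 and 103 CPM in the sprout, a ratio of 15667 (95% counting interval 2661 to 585684). Krt79, a keratin of skin appendage ducts, had 109, 314, 246, 298 and 342 CPM, a ratio of 10974 (3757 to 53251). Fbp1, fructose-1,6-bisphosphatase of gluconeogenesis, had 94.8, 91.5, 74.04, 91.7 and 68.7 CPM, a ratio of 10404 (1954 to 430210.0). In Krt79 the sprout library E16.5 control 1 was low at 109 CPM and the other 4 held 246 to 342 CPM.

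Of the 10 largest falls, Dkk4 and Sp5 were described with the Wnt pathway. Hoxc5, a homeobox gene of the same cluster as Hoxc8, had 50.02, 47.8, 46.02 and 42.6 CPM at E13.5 and 0, 0, 0.0752, 0.06701 and 0 CPM at E16.5 and fell by 10.55 ± 0.57 (-11.17 without E16.5 control 3). Adh1, an alcohol dehydrogenase that can oxidize retinol, had 143, 118, 265 and 165 CPM at E13.5 and 0.7005, 0.679, 0.451, 0.235 and 0 CPM at E16.5 and fell by 8.66 ± 0.63 (edgeR adjusted p = 1.3e-08). Caln1, a calmodulin-like protein, had 95.4, 93.8, 52.9 and 95.3 CPM at E13.5 and 0, 0.226, 0.0376, 0.168 and 0.428 CPM at E16.5 and fell by 8.93 ± 1.34 (-9.56 without E16.5 control 5). No sprout library reached 1 CPM for any of them. The ephrin receptor gene Epha6 fell by 8.24 ± 0.90 from 45.1 ± 4.63 to 0.1502 ± 0.143 CPM, and Trhde, which degrades thyrotropin-releasing hormone, by 7.96 ± 0.77 from 48.4 ± 19.4 to 0.185 ± 0.166 CPM. Creg2 fell by 8.72 ± 0.77 (-10.31 without E16.5 control 2) and the relaxin receptor gene Rxfp1 by 7.94 ± 1.19 (-12.14 without E16.5 control 2). Calb1, calbindin, had no count in the sprout and 39.998 CPM in E13.5 control 3, against 0.535 to 4.63 CPM in the other 3 bud libraries. It was at least 570.2-fold lower over the group, and its fitted log2 fold change was -11.43 ± 2.58 (-8.85 without E13.5 control 3).

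The stage change of controls was last set against that of the stabilized libraries, in the same model, by the test of the difference (the genotype by stage interaction). This asks which parts of the normal change were different in epithelium with stabilized β-catenin. It does not tell whether the genotypes differed at E13.5, at E16.5 or at both. Of 16580 autosomal genes, 5388 passed (32.5%). Without E13.5 control 3 and E16.5 stabilized 4, 5813 passed. The cell-cycle rise was much smaller in stabilized epithelium: the interaction passed for 41 of 42 mitosis genes and 34 of 36 replication genes, always in the lower direction. The median stage change in stabilized libraries was 0.43 for mitosis and 0.01 for replication genes, beside 2.56 and 1.81 in controls and 0.00 over all genes in stabilized libraries. For embryonic mammary regulators the interaction passed for 26 of 30 (19 with a higher stage change in stabilized epithelium), and their median was -0.33, beside -1.46 in controls. For Wnt targets it passed for 20 of 28, and the medians were -0.33 and -0.41.

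Single genes showed the size of these differences. Mki67 rose by 0.93 on the log2 scale in stabilized libraries and by 2.88 in controls (interaction -1.94 ± 0.25, edgeR adjusted p = 7.12e-06). The stage change of Ccnd1 was -0.01 against 2.12 (interaction -2.13 ± 0.29, edgeR adjusted p = 1.33e-05), and that of Cdkn1a was -0.22 against 1.83 (interaction -2.05 ± 0.38, edgeR adjusted p = 0.000471). In stabilized libraries neither Ccnd1 nor Cdkn1a passed the stage test (edgeR adjusted p = 0.987 and 0.601). Lef1 changed by -1.01 in stabilized libraries against -4.51 in controls (interaction 3.50 ± 0.28, edgeR adjusted p = 3.81e-08), and Axin2 by -0.73 against -3.48 (interaction 2.75 ± 0.24, edgeR adjusted p = 8.32e-08). Gata3 changed by -0.50 against -2.24 (interaction 1.74 ± 0.25, edgeR adjusted p = 2.81e-05).

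Near the threshold stood Tbx3 (interaction 0.53 ± 0.19, edgeR adjusted p = 0.0373) and Ctnnb1 (interaction 0.59 ± 0.22, edgeR adjusted p = 0.0487), both with smaller falls in stabilized epithelium. When 1 of the 18 libraries was left out in turn, Ctnnb1 passed only without E13.5 control 1, E16.5 control 5 or E16.5 stabilized 2, 4 or 5, and in the other 13 cases the interaction was 0.43 to 0.64 (edgeR adjusted p = 0.0502 to 0.106). Tbx3 did not pass in 10 of the 18 cases: without E13.5 control 1, 2 or 4, E13.5 stabilized 1 or 4, E16.5 control 1, 4 or 5 or E16.5 stabilized 1 or 2 (0.46 to 0.52, edgeR adjusted p = 0.0514 to 0.0847). With no low-count filter neither passed (Tbx3 0.53, edgeR adjusted p = 0.0513; Ctnnb1 0.59, edgeR adjusted p = 0.0576), and with a replicate block Tbx3 did not (0.52, edgeR adjusted p = 0.0586). The interaction did not pass for Krt14 (0.85 ± 0.33, edgeR adjusted p = 0.0541), Krt8 (-0.56 ± 0.46, edgeR adjusted p = 0.388), Pthlh (0.17 ± 0.32, edgeR adjusted p = 0.741) or Acta2 (-3.49 ± 1.52, edgeR adjusted p = 0.0936). Krt14 passed without E13.5 stabilized 2, E16.5 stabilized 4 or E16.5 stabilized 5 (0.94 to 0.98, edgeR adjusted p = 0.0178 to 0.0465), by DESeq2 (0.90, DESeq2 adjusted p = 0.0237), with median-of-ratios scaling (0.90, edgeR adjusted p = 0.043), with the stricter low-count filter (0.89, edgeR adjusted p = 0.0374) and without E13.5 control 3 and E16.5 stabilized 4 together (0.91, edgeR adjusted p = 0.0295). Acta2 passed without E13.5 control 3 (-5.63, edgeR adjusted p = 0.0103) or E16.5 stabilized 1 (-4.28, edgeR adjusted p = 0.0453), and without E13.5 control 3 and E16.5 stabilized 4 together (-5.43, edgeR adjusted p = 0.0164). The interactions of Axin2, Lef1, Gata3, Mki67, Ccnd1 and Cdkn1a passed whichever library was left out.

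**Figure D5:**
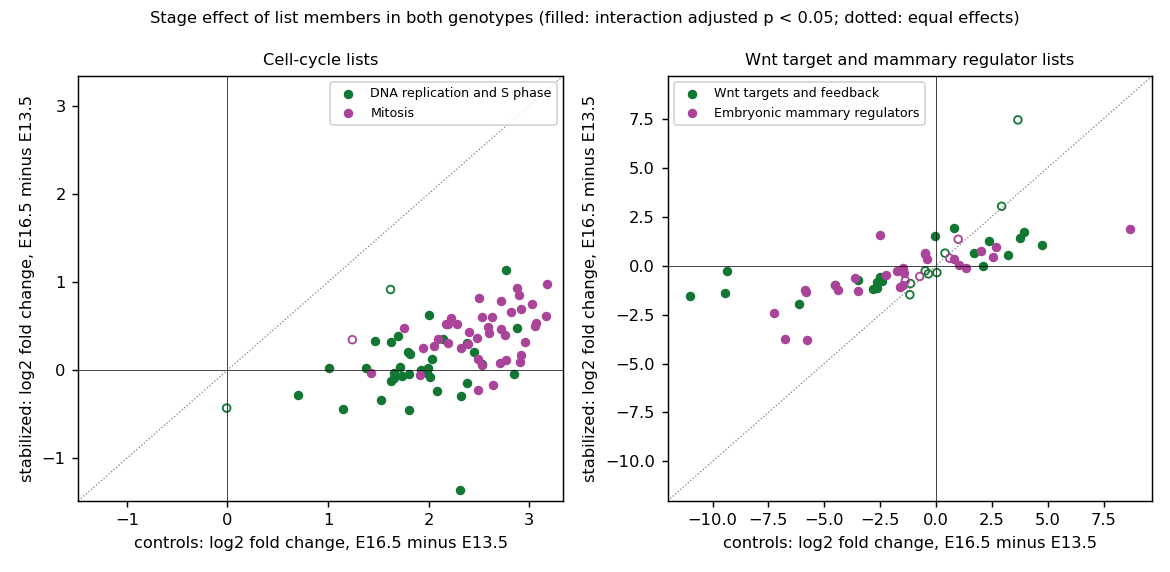
Stage effect (log2 fold change, E16.5 minus E13.5) of list members in controls (horizontal) and in stabilized libraries (vertical), for cell-cycle genes (left) and for Wnt targets and embryonic mammary regulators (right); filled points passed the interaction test and the dotted line marks equal effects. Of 78 cell-cycle genes, all but Gins2 lay to the right of 0, and 75 were filled.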

How the data were processed

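Bulk RNA-seq libraries were made from mammary epithelium of 18 pools, with RNA extracted by TRI Reagent and an RNeasy kit and libraries prepared with the Ovation SoLo kit, per the labels' protocols. The deposited table used for the tests holds estimated counts (expected counts) per gene, which the authors produced with Salmon. Salmon 0.99.0, Trimmomatic 0.39, DESeq2 3.15, FastQC 0.11.8, MultiQC 1.9 and the build mm10 are listed in the submitters' processing notes. For their settings, the strand and the annotation, the sources used here give nothing. The deposited counts are whole numbers, so no rounding was needed. The second deposited table, a normalized count signal per gene by the authors, served only to derive offsets per gene and library (length offsets) for 1 alternative. No value columns were left unused. Of 24376 gene identifiers, 24190 matched GENCODE M21 (GRCm38), which gave symbols and coordinates, and 23108 genes were autosomal. No libraries held identical values.

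Genes were kept by edgeR's filterByExpr (minimum count 10, 17269 genes), scaled by TMM and tested with the quasi-likelihood test (edgeR 4.0.16, limma 3.58.1, R 4.3.3) in 1 model with a mean for each of the 4 groups over all 18 libraries (14 residual degrees of freedom). P-values were adjusted by the Benjamini-Hochberg method over all tested genes (threshold 0.05). The procedure was tested on simulated data. CPM are estimated counts per 1000000 counts of the TMM-scaled library. Intervals of ratios (95%, exact, from summed counts) and bounds (3 counts over a group) cover counting error only.

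The 39 gene lists (30 pathways, 9 sets of markers of other cells) hold 867 entries, 857 of them in the table and autosomal. The comparison, its members and the lists were chosen with earlier results of these data known. The genes named are 12 genes chosen for their known role, the 10 largest called changes in each direction with at least 10 CPM in the higher group and no overlap between the groups, the 3 called members with the smallest adjusted p in each direction of each pathway list, and 1 in each direction of each marker list. Some genes that this rule selects are not reported here. A well known member below the threshold could also be named. Cdh1, Epcam, Gins2, Krt18, Krt5, Lgr5, Ptch1, Shh and Gm10800 lie outside this rule or under that last clause and were chosen with their values in view. Promoters came from RefSeq (GRCm38.p6). Alternatives were median-of-ratios scaling, no or a stricter low-count filter (at least 1 CPM in 4 control libraries), DESeq2 1.42.0, the control libraries alone, length offsets, a replicate block, adjustment over autosomal genes alone and leaving out each library. Leaving out both libraries that stand apart, and the scaling, filter and single-library alternatives of the interaction, were chosen after seeing the data. Replicate numbers do not pair the samples.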

Additional observations from a re-analysis of the deposited data

Results flagged for a closer look

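Groups of 4 E13.5 or 5 E16.5 control libraries were examined by Dixon's criterion. In 34 of 374 groups of values, 1 library lay far from the others. For independent values with a normal spread, chance gives about 1 in 20. The groups share libraries, and in the 7 genes where only 1 library held counts the criterion was met by construction. The count of 34 therefore cannot be set against 1 in 20. In 13 of the genes the outlying library was E13.5 control 3. That library was the highest for Bmp4 at 111 CPM (71.4 to 75.4 in the others), Calb1 at 39.998 CPM (0.535 to 4.63 in the others), Ccna2 at 36.99 CPM (21.8 to 24.1 in the others), Dkk4 at 66.5 CPM (6.44 to 9.70 in the others) and Flt1 at 0.569 CPM. The same library was the lowest for Caln1 at 52.9 CPM (93.8 to 95.4 in the others), Cdh3 at 223 CPM (302 to 313 in the others), Fgfr2 at 621 CPM (904 to 934 in the others), Fosl2 at 138 CPM (222 to 229 in the others), Stat2 at 19.5 CPM (43.1 to 44.0 in the others), Trp63 at 338 CPM (435 to 444 in the others), Unc5b at 409 CPM (702 to 713 in the others) and Vcl at 82.9 CPM (102 to 104 in the others). Its share of mitochondrial counts stood out in the same way, at 4.18% against 2.18% to 2.50% in the other 3 bud libraries.

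In 7 genes a single library held counts and the rest of its group had none. These were Dkk4 at 0.0357 CPM in E16.5 control 5, Dsc1 at 0.0647 CPM in E13.5 control 4, Fbp1 at 0.0324 CPM in E13.5 control 4, Flt1 at 0.569 CPM in E13.5 control 3, Hhip at 0.0324 CPM in E13.5 control 4, Kcnn4 at 0.0296 CPM in E13.5 control 1 and Rxfp1 at 0.356 CPM in E16.5 control 2. Among the remaining genes, values above the rest of the group were Actn4 at 1008 CPM in E16.5 control 3 (879 to 915 in the others), Cdkn1a at 16.7 CPM in E13.5 control 4 (7.57 to 8.39 in the others), Cdkn1c at 70.4 CPM in E16.5 control 1 (41.3 to 49.3 in the others), Creg2 at 0.129 CPM in E16.5 control 2 (0 to 0.0335 in the others), Eno2 at 1.54 CPM in E16.5 control 4 (0.857 to 0.977 in the others) and Ifih1 at 7.05 CPM in E16.5 control 2 (2.63 to 3.62 in the others). Further high values were Isl1 at 1.28 CPM in E16.5 control 1 (0.0323 to 0.226 in the others), Myh3 at 11.7 CPM in E16.5 control 5 (0.146 to 0.94 in the others), Nrarp at 85.1 CPM in E16.5 control 3 (69.9 to 74.1 in the others), Shh at 0.592 CPM in E13.5 control 1 (0 to 0.0297 in the others) and Wnt4 at 13.9 CPM in E16.5 control 5 (6.43 to 8.21 in the others). Values below the rest were Bmp4 at 0.321 CPM in E16.5 control 1 (1.61 to 1.88 in the others), Krt79 at 0 CPM in E13.5 control 2 (0.0296 to 0.0334 in the others) and Spred3 at 4.203 CPM in E16.5 control 1 (10.1 to 10.4 in the others). Krt79 held 3 counts over the bud libraries, so its flag rests on single counts and says nothing about that library.

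The stage change of 8 of the 12 genes chosen for their known role differed between controls and stabilized libraries by the test of the difference. Over all tested autosomal genes, 5388 of 16580 (32.5%) passed this test. On the log2 scale the difference was 0.59 for Ctnnb1, 2.75 for Axin2, 3.50 for Lef1, 0.53 for Tbx3, 1.74 for Gata3, -1.94 for Mki67, -2.13 for Ccnd1 and -2.05 for Cdkn1a, where a negative value means a lower stage change in stabilized epithelium, and Ctnnb1 and Tbx3 lost the call without single libraries, as given above. Outside the autosomal genes, E16.5 stabilized 4 held 3165 counts in Y-linked genes, beside 109 to 765 in the E16.5 control libraries and 4346 to 6226 in the E13.5 control libraries.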

How the results depend on the processing

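The number of autosomal genes past the threshold between the stages ran from 6362 with length offsets to 8445 by DESeq2, beside 7913, and each setting stayed within 1.5 times of it. Of the 6362 genes called with length offsets, 6007 were also called without them, 2 of these with the opposite sign. Between 7154 and 8047 genes passed when 1 control library was left out, and 8204 when both libraries that stand apart were. The share of calls that were higher at E16.5 lay between 49.97% and 54.4%. For the interaction, the count was 4977 with the replicate block, 3779 with length offsets, 5813 without both libraries that stand apart, 6163 by DESeq2 and 4787 to 5896 when 1 library was left out, beside 5388. Of the 194 genes named, 175 kept their direction and side of the threshold in every one of the 18 alternatives that tested them. A gene not tested in an alternative, as where the stricter filter removed it, was not counted as changed there. The calls that did change are given with the genes above. Hbb-bt and Pparg also did not pass without both libraries that stand apart (7.79 and -1.26). Cdh1 passed in the control libraries alone (0.33, edgeR adjusted p = 0.0225) and without E16.5 control 5 (0.40, edgeR adjusted p = 0.0436).

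Of the named genes that did not pass, Gins2, Lgr5 and Ptch1 changed sign. Gins2 was at 0.16 with the replicate block, 0.70 with length offsets, 0.13 without both libraries that stand apart and -0.21 to 0.30 without single libraries. Lgr5 was at -0.25 with length offsets, -0.17 without both libraries and -0.15 to 0.20 without single libraries, and Ptch1 at -0.14 without both libraries and -0.13 to 0.31 without single libraries. Limk2, which passed, turned to 0.10 with length offsets. The cause was not tested.

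Counts of list members that moved by more than 1.5 times, beside those given above, were these. With length offsets, 2 Hedgehog genes fell (4 otherwise), 4 Egf family genes rose (8), 5 apical genes rose (8) and 4 fell (2), and 2 interferon response genes rose (4). By median-of-ratios scaling, DESeq2 or the stricter filter, 5 Notch genes fell (2), and 4 did in the control libraries alone. With the stricter filter or the control libraries alone, 1 gene of cholesterol and fatty acid synthesis fell (0). With the stricter filter or DESeq2, 2 immediate-early genes fell (1). Actomyosin genes that fell numbered 1 without E13.5 control 2 or 4 (2). Markers of muscle, neural, Merkel, adipocyte and erythroid cells and of mesenchyme moved by a few genes. The medians of the Egf, apical, basement membrane, hair placode, mesenchyme, muscle, neural and Merkel lists changed sign under at least 1 alternative (lowest values -0.02, -0.01, -0.26, -0.69, -0.42, -0.03, -0.13 and -0.72).

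Samples with the same replicate number did not deviate together (correlations 0.0181, -0.0324, -0.0295 and -0.0763). With the number as a replicate block, 7310 genes passed between the stages, 4 Edar and NF-κB genes rose (7 without the block), 3 mesenchyme markers fell (6), and Hbb-bt (7.39, edgeR adjusted p = 0.0655), Pparg (-1.39, edgeR adjusted p = 0.0659) and the interaction of Tbx3 (0.52, edgeR adjusted p = 0.0586) did not pass. The block changed no other call of a named gene. Genes with a few counts in 1 group, such as Dkk4, Sp5 and Calb1, are limited by depth, and their fitted log2 fold changes are no bounds.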
